A study of Mus musculus with 20 samples.

Results

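The comparison set the endothelial immunoprecipitate (IP) against the input of the same tumor in 5 control IgG tumors, and its members were the 10 libraries of these tumors out of 20 in the series. Each IP library was paired by tumor number with its input library. The mice were female RiboTagEC mice on C57BL/6J (Rpl22HA/HA x Cdh5CreERT2), in which Cre is driven by the Cdh5 promoter, is activated by tamoxifen and switches on a copy of Rpl22, a protein of the large ribosomal subunit, that ends in a hemagglutinin (HA) tag. Tamoxifen was given from 3 weeks of age at 75 mg/kg for 5 days, and Py8119 cells, a mouse mammary carcinoma line, were implanted in a mammary fat pad at 8 weeks. Control mouse IgG was injected at 25 mg/kg from a tumor volume of 30 mm3 in the labels and methods (50 mm3 in the series design) until day 10. The other tumors of the series carried the same alleles, received the same tamoxifen and differed in the antibody, 6-3-A6 against Notch4. The question was which mRNAs the tagged ribosomes of tumor endothelial cells (ECs) carried, beside the RNA of the whole tumor.

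In a RiboTag mouse, ribosomes that contain the tagged Rpl22 are pulled from a tissue lysate with an anti-HA antibody, so the IP holds mRNA that was bound to ribosomes of cells with Cre activity. The input is an aliquot of the same lysate and holds RNA of tumor cells, ECs, leukocytes, fibroblasts and mural cells together. ECs line blood and lymph vessels, are held together by VE-cadherin and claudin junctions, and are steered in growing vessels by VEGF, angiopoietin, Notch and sphingosine-1-phosphate signaling. The recombination depends on the activity of the Cdh5 promoter at the time of tamoxifen, several weeks before the tumor grew. No library of a mouse without the tag was analysed here, so RNA that stuck to the beads without a tagged ribosome cannot be told apart from RNA of tagged ribosomes.

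Input libraries held 11881214 to 19325308 counts and IP libraries 15677474 to 22790757. Levels are given as CPM, the share of a gene in the counts of its library, scaled by the TMM factors of edgeR. Per-library values are listed in the order of tumors 1 to 5. A log2 fold change is that of IP over input in a paired edgeR quasi-likelihood fit over 13671 genes, and a gene was called at a Benjamini-Hochberg adjusted p under 0.05. Because a level is a share, a gene was called lower in IP wherever it took a smaller share there, and the test does not compare amounts per cell. Nor can fewer cells of a type be told apart from less RNA per cell in bulk samples. IP library 4 stood apart from the other IP libraries. Mitochondrially encoded genes took 11.3% of its counts before scaling, against 2.44%, 4.37%, 1.16% and 2.21% in IP libraries 1, 2, 3 and 5 and between 10.4% and 17.2% in the input libraries.

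The 3 genes that define the endothelial label were far more abundant in IP than in input in every tumor. Pecam1 (CD31, an adhesion protein of endothelial borders, chromosome 11, 106545043 to 106641454 in GRCm39) had 1536, 1169, 1439, 325 and 549 CPM in IP and 64.7, 59.3, 73.7, 46.6 and 50.5 CPM in input. Its lowest IP value exceeded its highest input value, and the difference was larger than the spread between tumors (log2 fold change 3.89, standard error 0.27, adjusted p = 2.89e-06). Cdh5 (VE-cadherin, chromosome 8, 104828257 to 104871143) had 1089, 1141, 1554, 326 and 691 CPM in IP and 50.7, 60.2, 59.5, 41.3 and 42.9 CPM in input (log2 fold change 4.08, standard error 0.25, adjusted p = 1.46e-06). Cdh5 is also the gene whose promoter drives the Cre, and its groups did not overlap. Sox18 (chromosome 2, 181311629 to 181313433), a transcription factor of vascular development, had 223, 109, 176, 57.6 and 92.7 CPM in IP and 4.45, 5.398, 4.396, 2.62 and 3.29 CPM in input (log2 fold change 4.93, standard error 0.21, adjusted p = 3.86e-07). For all 3 genes tumor 4 had the lowest IP value, while the inputs of the 5 tumors lay close together. The labelled fraction thus carried its defining markers in all 5 tumors.

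**Figure D1:**
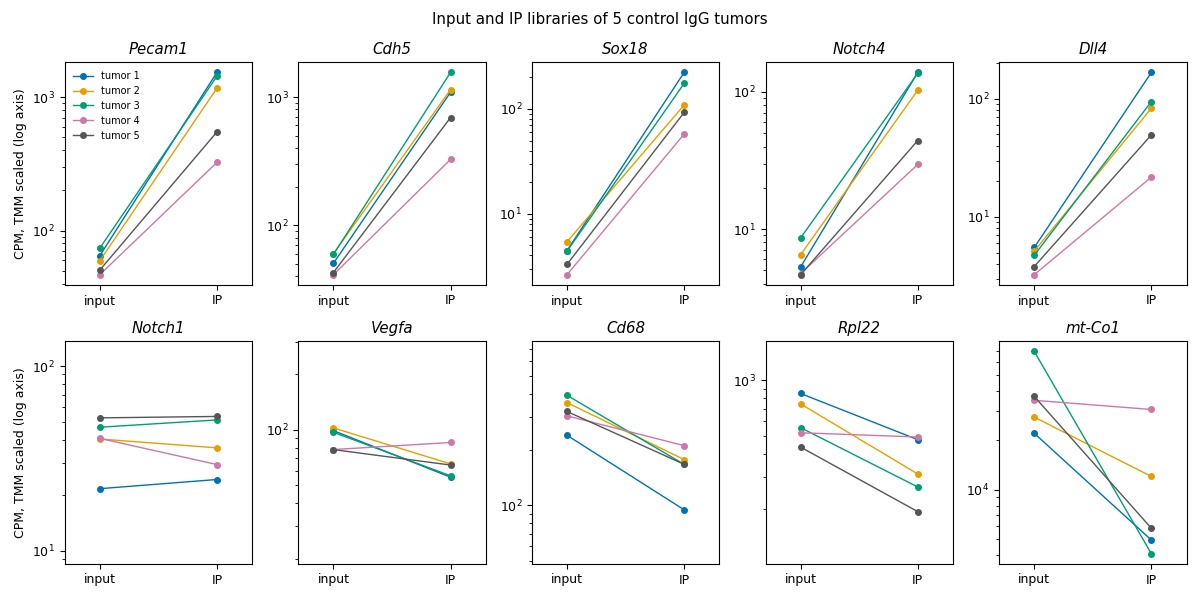
CPM (TMM scaled, log axis) of 10 genes in the input and IP library of each control IgG tumor, 1 colored line per tumor and 1 panel per gene, each panel with its own axis range. Pecam1, Cdh5, Sox18, Notch4 and Dll4 were higher in IP in all 5 tumors, Notch1 had overlapping ranges, and mt-Co1 was lower in IP with a nearly level line in tumor 4.

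Of the 13671 genes tested, 4629 (33.9%) were called, 2382 (17.4%) higher and 2247 (16.4%) lower in IP, and 6297 had an unadjusted p under 0.05. The fit without the pairing called 2119, and the fit of tumors 2, 4 and 5, whose IP libraries the study kept, called 1161. Single tumors also moved the count, to 2638 without tumor 3, 2796 without tumor 5 and 5698 without tumor 4. The 2 directions differed in size. At least 4-fold higher in IP were 455 genes (3.33%), of which 259 had a log2 fold change of 3 or more and 92 of 4 or more, whereas 19 genes were at least 4-fold lower. The median log2 fold change was 0.76 over the genes called higher, -0.67 over those called lower and -0.05 over all genes tested. The 5 IP values lay above all 5 input values for 1201 genes (8.79%) and below them for 606 genes (4.43%). The balance of the 2 directions depended on the scaling. Of the calls, 51.5% were higher in IP with TMM factors, 69.2% with library totals alone, where the median log2 fold change of all genes shifted by 0.14, and 38.8% with upper quartile factors, where it shifted by -0.09.

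**Figure D2:**
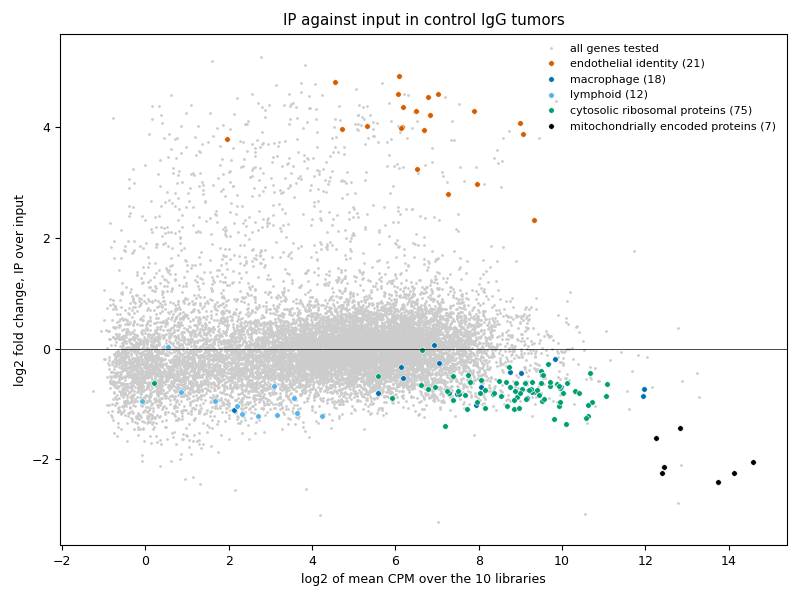
Log2 fold change of IP over input against the log2 of mean CPM over the 10 libraries for 13671 genes (gray), with 5 gene lists in color and the number of tested members in brackets. The 21 tested endothelial identity genes lie above a log2 fold change of 2, while the lymphoid, ribosomal protein and mitochondrially encoded genes lie at or below 0 apart from a single lymphoid gene just above it.

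Among genes with a mean of at least 5 CPM in IP, the largest differences belonged to genes of several kinds. Uchl1, a ubiquitin hydrolase best known from neurons, had 22.2, 10.4, 23.03, 4.003 and 7.58 CPM in IP and 0.451, 0.428, 0.517, 0 and 0.323 CPM in input (log2 fold change 5.27). Zfp711, an X-linked zinc finger protein, had 6.27, 5.27, 10.5, 2.92 and 4.7997 CPM in IP and 0.282, 0.0857, 0.172, 0.05699 and 0.129 CPM in input (5.21). Rbp7, a cellular retinol-binding protein, had 31.9, 17.1, 57.6, 12.1 and 19.7 CPM in IP and 0.901, 0.5998, 0.603, 0.741 and 0.581 CPM in input (5.13). The input values of Uchl1, Zfp711 and Rbp7 were under 1 CPM in every tumor, so their fold changes rest on low counts in input. The others of the 15 largest had log2 fold changes between 4.60 and 4.93. They were the transcription factors Sox18, Sox7 (4.81), Nr5a2 (4.76) and Hoxd10 (4.61), the C-type lectin Clec14a (4.82), the tight junction protein Cldn5 (4.60), the transmembrane collagen Col13a1 (4.78), Ramp2 (4.60, the partner of the adrenomedullin receptor), and Klhl4 (4.80), Tmem252 (4.69), Fam110d (4.64) and Kif26a (4.61). The rule for this list took genes that were higher in IP in 5 of 5 tumors.

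The endothelial program as a whole stood on the IP side. Over 16 gene lists on endothelial identity, signaling and function, which share some members, 168 of 188 genes passed the filter on low counts. Of these 117 were called higher and 11 lower, with a median log2 fold change of 1.59, against 17.4% and 16.4% of all genes and a median of -0.05. Another 9 (Adm, Angpt2, Cav1, Cav2, Cavin2, Ecscr, Esm1, Hoxd8 and Lyl1) were listed at 0 in all 20 libraries. The table lists 55789 of 55866 genes as 1 interval whose length is the whole span from start to end, and the span of each of these 9 genes lies wholly within another gene in the same table. How reads shared by overlapping genes were counted is not given in the sources used here. Of the 44 list members at 0 in all libraries, B2m among them, 30 were covered wholly and 10 in part. Nothing is known of their levels from these counts.

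All 21 tested genes of the endothelial identity list were called higher, with log2 fold changes from 2.33 for Cd93, a lectin-like receptor that myeloid cells also carry, to 4.93 for Sox18, and a median of 4.03. Their summed level was 2181 to 9193 CPM in IP and 458 to 619 CPM in input, so that the lowest IP sum was above the highest input sum. The median log2 ratio over the list was 4.75, 4.18, 4.69, 2.96 and 3.88 in tumors 1 to 5, and without tumor 4 the median fold change over the list was 4.34 with the same 21 calls. Claudin-5 was among the most strongly enriched. Cldn5 had 267, 102, 213, 26.7 and 33.04 CPM in IP and 4.8999, 5.23, 7.4997, 1.94 and 2.13 CPM in input (log2 fold change 4.60, standard error 0.27, adjusted p = 1.4e-06). Eng, the TGF-beta coreceptor endoglin, had the next smallest difference after Cd93 at 2.79.

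Transcription factors of the endothelium were mostly higher in IP. Of 25 tested, 19 were called higher and 0 lower, with a median log2 fold change of 1.61. The SOXF factors Sox18 (4.93), Sox7 (4.81) and Sox17 (4.40) and the homeobox factor Meox2 (4.59) were at the top. Meox2 had 58.5, 25.3, 49.98, 17.5 and 28.96 CPM in IP and 1.86, 1.11, 2.4999, 1.197 and 0.7099 CPM in input. The forkhead factor Foxc2 (-0.51, adjusted p = 0.0612) and the venous factor Nr2f2 (-0.14, adjusted p = 0.467) did not pass the test. Nr2f2 had 128, 132, 126, 157 and 111 CPM in IP and 195, 114, 155, 135 and 129 CPM in input, overlapping ranges at similar levels in both fractions.

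Promoters are printed here for the 3 endothelial identity genes with the largest fold changes, and the 2 ribosomal protein genes with the smallest, that had a promoter entry with a core motif, because these 2 groups lay on opposite sides of the comparison. The sequences are from RefSeq (GRCm38.p6, whereas the counts are on GRCm39) and run 5′ to 3′ on the strand of the gene, from 250 bases before to 50 bases after its start. Capitals mark the cores AGGAAG and CGGAAG of the ETS family, to which the endothelial factors Erg, Fli1 and Ets1 belong, on either strand (reversed as CTTCCT and CTTCCG). The 2 cores differ in their first letter and were searched separately.
Robo4, chr9:37401722-37402021, plus strand: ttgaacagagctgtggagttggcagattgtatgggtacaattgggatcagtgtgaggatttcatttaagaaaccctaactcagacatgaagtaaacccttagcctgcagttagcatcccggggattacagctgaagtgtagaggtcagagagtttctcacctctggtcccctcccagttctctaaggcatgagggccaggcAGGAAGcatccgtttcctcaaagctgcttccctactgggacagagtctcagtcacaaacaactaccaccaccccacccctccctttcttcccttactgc
Emcn, chr3:137340828-137341127, plus strand: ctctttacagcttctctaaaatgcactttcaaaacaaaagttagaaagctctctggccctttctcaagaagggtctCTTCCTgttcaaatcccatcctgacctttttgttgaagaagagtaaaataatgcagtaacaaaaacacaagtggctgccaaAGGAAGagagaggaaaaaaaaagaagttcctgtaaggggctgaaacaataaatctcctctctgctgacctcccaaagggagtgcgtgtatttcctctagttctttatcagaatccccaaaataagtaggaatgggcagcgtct
Tie1, chr4:118489800-118490099, minus strand: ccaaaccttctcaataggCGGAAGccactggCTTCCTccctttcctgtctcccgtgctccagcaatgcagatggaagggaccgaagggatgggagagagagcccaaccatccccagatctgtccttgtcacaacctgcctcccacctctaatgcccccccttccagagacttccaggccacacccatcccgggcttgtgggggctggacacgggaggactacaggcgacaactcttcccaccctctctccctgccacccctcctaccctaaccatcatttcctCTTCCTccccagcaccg
Rps2, chr17:24719813-24720112, plus strand: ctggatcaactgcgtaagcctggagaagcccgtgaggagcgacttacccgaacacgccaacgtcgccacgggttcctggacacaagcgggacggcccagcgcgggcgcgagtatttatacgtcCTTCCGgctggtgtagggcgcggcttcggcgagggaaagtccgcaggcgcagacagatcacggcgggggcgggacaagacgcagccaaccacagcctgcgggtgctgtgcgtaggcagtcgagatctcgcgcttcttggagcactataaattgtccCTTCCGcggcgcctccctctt
Rpl12, chr2:32961462-32961761, plus strand: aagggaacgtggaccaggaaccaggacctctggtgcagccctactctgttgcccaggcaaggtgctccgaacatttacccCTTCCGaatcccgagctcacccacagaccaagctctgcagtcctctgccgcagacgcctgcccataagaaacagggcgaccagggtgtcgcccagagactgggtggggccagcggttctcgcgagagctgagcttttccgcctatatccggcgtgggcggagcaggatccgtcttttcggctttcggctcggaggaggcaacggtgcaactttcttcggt
Robo4 (a guidance receptor), Emcn (endomucin, a surface sialomucin) and Tie1 (an orphan receptor of the angiopoietin system) had log2 fold changes of 4.36, 4.30 and 4.29. Rps2 and Rpl12, proteins of the small and the large ribosomal subunit, had -1.27 and -1.22.

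Promoter entries could be matched for 10403 of the 13671 genes tested, for 328 of the 455 genes at least 4-fold higher in IP and for 12 of the 22 identity genes. AGGAAG occurred in 35.1% of all 27025 promoters, in 33.8% of those of tested genes, in 40.9% of those at least 4-fold higher, in 46.0% of those with a log2 fold change of 3 or more and in 7 of 12 identity promoters. It was also found in 49.1% of 55 ribosomal protein promoters and in 35.7% of those of genes called lower. CGGAAG occurred in 17.2% of all promoters, 30.6% of tested and 12.2% of the at least 4-fold higher genes, and in 67.3% of 55 ribosomal protein promoters. Either core was found in 54.3% of tested and 49.7% of at least 4-fold higher promoters (exact 95% interval 44.2% to 55.2%, counting error only). The median number of CpG dinucleotides was 20 in tested and 15 in the at least 4-fold higher promoters. The SOX core AACAAT occurred in 5.89% and 7.93%, and the GATA core AGATAA in 6.35% and 6.10%. These are matches of letters in a window and are given as a description, with no test.

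Most receptors for VEGF and angiopoietin were higher in IP, and most genes of the ligand list were not. Of 8 receptors and coreceptors tested, 6 were called higher and 0 lower. Kdr (VEGFR2, the main receptor of VEGF-A on ECs) had 298, 215, 217, 84.6 and 151 CPM in IP and 10.98, 11.4, 9.83, 11.6 and 13.7 CPM in input (log2 fold change 3.96, standard error 0.26, adjusted p = 2.49e-06). Tek (the angiopoietin receptor TIE2) had 132, 87.9, 80.6, 27.8 and 48.3 CPM in IP and 4.79, 6.08, 4.05, 3.53 and 2.71 CPM in input (log2 fold change 4.03). The groups of both genes were apart. The neuropilin coreceptors Nrp1 (0.41, adjusted p = 0.0856) and Nrp2 (0.28, adjusted p = 0.235), which other cells also express, did not pass. Nrp1 had 194, 229, 167, 109.98 and 160.3 CPM in IP and 120.4, 108, 136, 123 and 144 CPM in input, and tumor 4 was the only tumor with the lower value in IP. Without tumor 4, Nrp1 passed the test.

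The ligand list also held Angptl4, which is not itself a VEGF or an angiopoietin. Its member Angpt2 was at 0 in all libraries and could not be tested. Of the 7 genes tested, 2 were called higher and 3 lower. Pgf, placental growth factor, had 79.9, 42.1, 134, 24.5 and 19.8 CPM in IP and 8.95, 10.5, 11.3, 7.98 and 6.91 CPM in input (log2 fold change 2.39, standard error 0.29, adjusted p = 0.000229). Angptl4, an inhibitor of lipoprotein lipase, had 74.7, 35.5, 80.5, 16.96 and 23.8 CPM in IP and 4.28, 6.68, 7.07, 6.84 and 4.97 CPM in input (log2 fold change 2.72). Vegfa had 55.4, 65.4, 56.3, 85.3 and 64.4 CPM in IP and 98.9, 102, 96.9, 78.1 and 78.1 CPM in input (log2 fold change -0.48, standard error 0.15, adjusted p = 0.0313). The ranges of Vegfa overlapped, tumor 4 went the other way, and the call was lost without tumor 1, 2, 3 or 5. Vegfb (-1.16) and Vegfd (-0.85) were lower in IP and Vegfc (0.23, adjusted p = 0.181) was not called.

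The Notch receptors and ligands, the pathway that the study targets, separated by member. Of 8 tested, 4 were called higher and 1 lower. Notch4, the receptor that is largely restricted to endothelium (chromosome 17, 34783242 to 34807477), had 139, 103, 137, 29.6 and 44.2 CPM in IP and 5.29, 6.51, 8.62, 4.73 and 4.65 CPM in input (log2 fold change 3.73, standard error 0.26, adjusted p = 3.26e-06). Dll4, the Delta ligand of tip cells and arteries, had 167, 83.2, 94.8, 21.7 and 49.5 CPM in IP and 5.52, 5.14, 4.74, 3.25 and 3.81 CPM in input (log2 fold change 3.98, standard error 0.27, adjusted p = 2.49e-06). The IP values of both genes lay above all input values. The ligands Jag2 (log2 fold change 2.97) and Dll1 (2.28) were also called higher.

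Notch1, which ECs share with many other cells, had 24.3, 36.1, 51.1, 29.3 and 53.4 CPM in IP and 21.7, 40.3, 46.6, 40.6 and 52.4 CPM in input (log2 fold change -0.06, standard error 0.12, adjusted p = 0.717). Its ranges overlapped almost entirely. Jag1 (0.22, adjusted p = 0.282) and the mural receptor Notch3 (0.05, adjusted p = 0.894) were not called, and the signs of Notch1 and Notch3 changed under some alternative settings. Notch2 had 82.2, 94.5, 78.8, 102 and 151 CPM in IP and 144, 119.8, 131, 119 and 159 CPM in input (log2 fold change -0.44, standard error 0.14, adjusted p = 0.0313), with tumor 5 above the others in both fractions. Its call was lost without tumor 1, 2 or 3 and without the pairing. The wider Reactome pathway Signaling by NOTCH had 16 genes called higher and 7 lower of 63 tested, against 17.4% and 16.4% of all genes, with a median of 0.05 that changed sign with upper quartile scaling and in tumors 2, 4 and 5. Without the pairing the counts were 8 and 2, and without tumor 3 they were 9 and 2. The count called lower was 4, 11 and 3 without tumor 2, 4 or 5.

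Junction proteins of the endothelial list were called higher in IP for 17 of 18 tested, with a median log2 fold change of 1.48. The largest values were those of Cldn5 (4.60), the immunoglobulin adhesion protein Esam (4.60) and the Rap1 effector Rasip1 (4.31), and the smallest called higher was Ctnnd1 (p120-catenin, 0.67). N-cadherin (Cdh2, -0.96) was lower in IP. It had 60.4, 126, 59.7, 152 and 94.3 CPM in IP and 175, 159, 204, 176 and 185 CPM in input, so that the 2 cadherins of ECs lay on opposite sides. The Reactome pathway Cell-cell junction organization, which covers junctions of all cell types, had 11 called higher and 5 lower of 32, against 17.4% and 16.4% of all genes, with a median of -0.14 that changed sign without tumor 3. The count called lower was 3 without tumor 1, 2, 3 or 5 and 2 without the pairing. Proteins of caveolae and fenestral diaphragms were called higher in all 5 tested, with Plvap, the diaphragm protein, at 277, 224, 350.3, 70.8 and 167 CPM in IP and 6.81, 11.5, 15.7, 8.09 and 11.2 CPM in input (log2 fold change 4.23, standard error 0.27, adjusted p = 2.12e-06). Cavin1 (4.11) and Cavin3 (3.51) followed, while Pacsin2 (0.41) was near the threshold and lost its call without tumor 1, 3 or 5.

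Endothelial G protein coupled receptors and their partners had 13 of 15 called higher and 0 lower, with a median of 2.78. The largest were Ramp2 (4.60), the adhesion receptor Adgrl4 (4.42) and the apelin receptor Aplnr (4.19). The thrombin receptor F2r (0.29) and the prostaglandin receptor Ptger4 (-0.26) were not called. Of 15 receptors and effectors of BMP and TGF-beta signaling, 5 were called higher and 1 lower, against 17.4% and 16.4% of all genes, and 2 were called lower without tumor 2 or 4. Eng (2.79), the BMP target Id1 (1.94) and the receptor ALK1 (Acvrl1, 1.80) were the largest. Id2 (-0.48) was lower, a call lost without tumor 1, 3 or 5, and betaglycan (Tgfbr3, -0.59, adjusted p = 0.0503) did not pass.

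Genes of sprouting tip cells were called higher in 11 of 11 tested, with a median of 2.52. The other 3 of the 14 members, Adm, Angpt2 and Esm1, were at 0 in all libraries. The comparison is with the whole tumor, so it does not tell tip cells from other ECs. Igfbp3, an IGF-binding protein, had 11266, 6844, 8831, 1579.7 and 2722 CPM in IP and 489, 316, 259, 177 and 144 CPM in input (log2 fold change 4.30, standard error 0.29, adjusted p = 2.52e-06). In tumor 3 it was the gene with the most counts of the IP library. Flt4 (VEGFR3, 3.85) was also among the largest, and Plxnd1 (1.29, a semaphorin receptor) and Unc5b (1.25, a netrin receptor) were the smallest. Of genes of hemostasis and vascular tone, 11 of 15 were called higher and 1 lower. The nitric oxide synthase Nos3 had 34.5, 10.5, 8.23, 4.57 and 4.96 CPM in IP and 0.732, 0.5998, 0.431, 0.399 and 0.323 CPM in input (log2 fold change 4.44, standard error 0.30, adjusted p = 2.45e-06). Its value in IP library 1 was far above the others, although each IP value was above all inputs. Vwf, the platelet-tethering factor, had a log2 fold change of 3.25, while Ptgs1 (-0.58, cyclooxygenase-1) was lower and Plat (-0.54, tissue plasminogen activator) not called.

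The genes of leukocyte adhesion did not move together. Icam2 (3.97), Selp (P-selectin, 2.02) and Podxl were called higher, and Vcam1 and Cd99l2 lower. Selp had 6.76, 1.98, 0.994, 1.52 and 2.18 CPM in IP and 3.098, 0.343, 0.172, 0.285 and 0.323 CPM in input, so tumor 1 stood above the others in both fractions. Vcam1 had 330.1, 571, 267, 556 and 392 CPM in IP and 646, 577, 992, 593 and 681 CPM in input (log2 fold change -0.75, standard error 0.25, adjusted p = 0.0395). All 5 IP values of Vcam1 were below all inputs, but tumors 2 and 4 hardly differed, and the call was lost without tumor 1, 3 or 5. The call of Cd99l2 (-0.41, adjusted p = 0.0362) was lost without tumor 1, 2, 3 or 5, without the pairing and with library totals. Lipid uptake was carried by few genes, with 5 of 12 called higher and 0 lower. Gpihbp1, which holds lipoprotein lipase on capillary walls, had 503, 244, 479.8, 76.8 and 117 CPM in IP and 11.3, 13.5, 15.2, 5.47 and 6.32 CPM in input (log2 fold change 4.55, standard error 0.25, adjusted p = 8.81e-07). The fatty acid-binding proteins differed from each other, with Fabp4 at 3.28 and Fabp5 at -0.27 (adjusted p = 0.236).

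Of 15 basement membrane genes, 10 were called higher and 2 lower. The nidogens Nid2 (2.52) and Nid1 (2.44) and Col15a1 (2.32) were the largest. Lower were Col4a5 (-1.01) and agrin (Agrn, -0.46), both of which lost their call without tumor 1 or 3 and without the pairing. Over all genes tested, 17.4% were called higher and 16.4% lower. Reactome's Laminin interactions had 10 higher and 2 lower of 27 tested, with 0 lower without the pairing. The broad pathway Extracellular matrix organization had 35 higher of 189, a share near that of all genes, and 50 lower, where the count called lower was 27, 24 and 25 without tumor 1, 3 or 5 and 13 without the pairing.

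Genes of both arterial and venous ECs were higher in IP. Of 13 arterial genes tested, 11 were called higher and 0 lower with a median of 2.66, led by Sox17 (4.40), Dll4 (3.98) and the semaphorin Sema3g (3.77). Efnb2, the arterial ephrin, had 251, 253, 261, 213 and 190.4 CPM in IP and 197, 151, 197, 224 and 206 CPM in input and was not called (log2 fold change 0.26, adjusted p = 0.189). Of 11 venous genes, 7 were called higher and 1, Vcam1, lower, with a median of 2.02, led by Tmem252 (4.69), Emcn (4.30) and Aplnr (4.19). Over the alternative settings the venous median ranged from 0.82 to 2.55 and the arterial median from 2.12 to 2.94. Of 7 lymphatic genes, 3 were called higher and 1 lower. The higher ones included Flt4 and Mmrn1 (2.10), and the lower one was podoplanin (Pdpn, -0.59), which fibroblasts also express. The lists overlap in function, and the difference between arterial and venous genes was not tested.

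**Figure D3:**
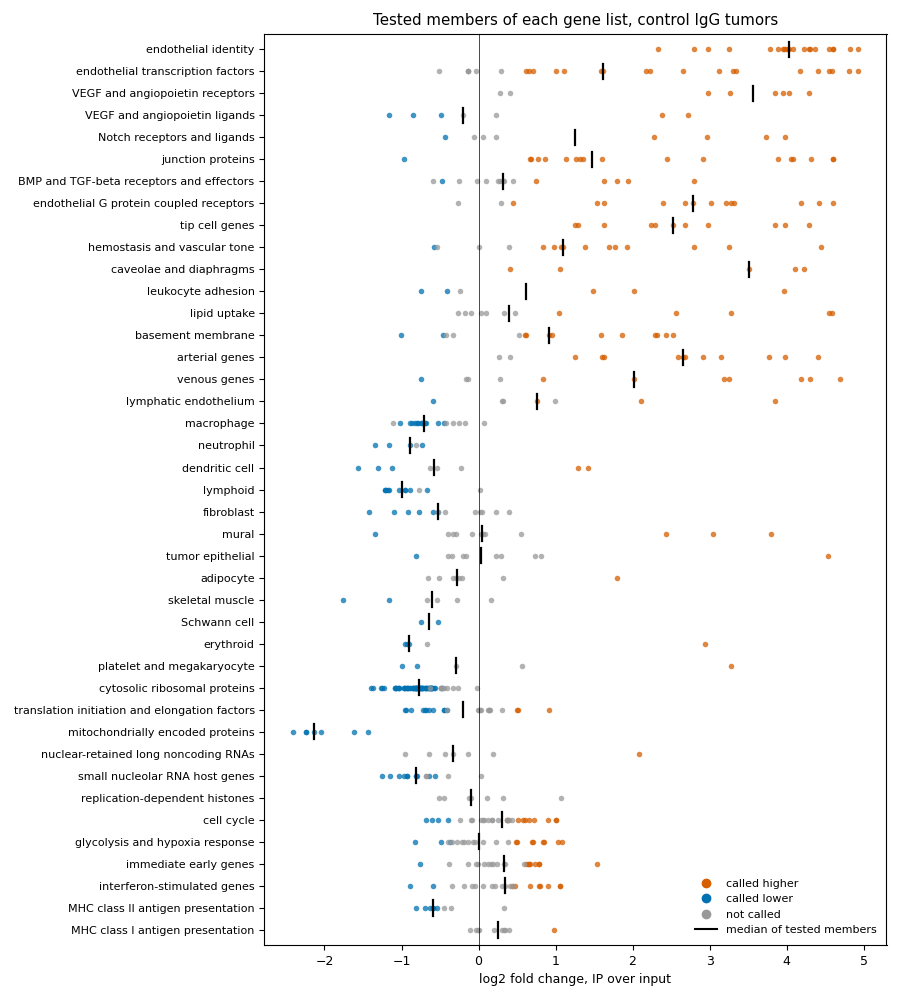
Log2 fold change of IP over input for each tested member of 41 gene lists, 1 row per list, with called members in orange (higher) or blue (lower), other members in gray and the median as a black bar. Of the 16 endothelial lists at the top, 11 reach values above 4, and the leukocyte, ribosomal protein and mitochondrially encoded lists lie mostly below 0.

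Markers of other cells were lower in IP or near 0, with exceptions. Over 12 lists of leukocyte, stromal, tumor and blood cells, 104 of 130 genes were tested. Of these 9 were called higher and 46 lower, against 17.4% and 16.4% of all genes, and the median was -0.53. Macrophage genes had 12 of 18 called lower and 0 higher, with a summed level of 8121 to 12938 CPM in IP and 14909 to 19822 CPM in input. Cd68, a lysosomal protein of macrophages, had 94.4, 177, 166, 210.05 and 166 CPM in IP and 239, 359, 393, 305 and 321 CPM in input (log2 fold change -1.02, standard error 0.14, adjusted p = 0.00055). All 5 IP values were below all input values, yet they remained well above 0. Lymphoid genes had 10 of 12 called lower, with the T cell receptor chain Cd3e at -1.21 and granzyme B (Gzmb) at -1.21. Their summed level was 42.5 to 65.2 CPM in IP and 79.3 to 156 CPM in input.

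Neutrophil genes had 4 of 5 called lower, against 16.4% of all genes, and 0 without the pairing. S100a8 had 2.86, 4.01, 22.03, 6.23 and 0.674 CPM in IP and 4.56, 9.08, 63.01, 11.5 and 2.07 CPM in input (log2 fold change -1.16), and tumor 3 was the highest in both fractions. Fibroblast genes had 6 of 13 called lower (3 without the pairing), among them dermatopontin (Dpt, -1.42) and Mfap5 (-1.10), while Col3a1 (0.39, adjusted p = 0.202) did not pass. The summed level of the fibroblast list was 3822, 3315, 651, 1702 and 1637 CPM in IP and 5045, 2175, 1069.6, 1704 and 1388 CPM in input. It was lower in IP in tumors 1 and 3, higher in tumors 2 and 5 and nearly equal in tumor 4. Part of the IP libraries was thus RNA of genes that mark other cells, and the share that this RNA took in any single result was not tested.

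The 9 genes of other cells that were higher in IP came from several lists. Among mural genes, Mcam (CD146, an adhesion protein of pericytes and ECs) had 1501, 855, 683, 181 and 397 CPM in IP and 57.1, 60.2, 33.02, 30.7 and 35.2 CPM in input (log2 fold change 3.80, standard error 0.29, adjusted p = 6.06e-06), and Kcnj8 (3.04) and Abcc9, subunits of a potassium channel, were higher as well. Pdgfrb, Rgs5, Acta2 and Cspg4 were among the 8 of 12 tested mural genes that were not called. Desmin (Des, -1.34) was the 1 mural gene called lower, and 3 were called lower without tumor 4. Krt20, from the list of tumor epithelium, had 10.3, 5.09, 22.03, 2.796 and 3.81 CPM in IP and 0.282, 0.514, 0.431, 0.05699 and 0.387 CPM in input (log2 fold change 4.54, standard error 0.37, adjusted p = 9.67e-06). Krt18, the more abundant keratin, had 157, 139, 70.6, 193 and 123 CPM in IP and 291, 298, 177, 203 and 193 CPM in input (log2 fold change -0.81, standard error 0.17, adjusted p = 0.00635), and its call was lost without the pairing. These 2 keratins were the only called genes of 10 tested in the list of tumor epithelium, whose median was 0.03. In that list 2 were called higher and 1 lower without tumor 1, and 2 higher and 2 lower without tumor 4. The adipocyte and EC regulator Pparg (1.80), the erythropoietin receptor Epor (2.93), integrin beta 3 (Itgb3, 3.28) and the dendritic cell genes Zbtb46 (1.43) and Clec9a (1.29) were also called higher. The dendritic cell genes Xcr1 (-1.57) and Ccr7 (-1.30) were lower, and Siglech was the other dendritic cell gene called lower.

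Most cytosolic ribosomal protein genes were called lower in IP in the paired fit. Of 82 cytosolic ribosomal protein genes 75 were tested, and 66 were called lower and 0 higher, with a median log2 fold change of -0.77. The median ratio was -0.35, -1.26, -0.98, -0.10 and -1.11 in tumors 1 to 5, so tumors 1 and 4 differed least from their inputs. The count called lower was 12 in the fit without the pairing, 41 without tumor 2, 34 without tumor 3, 22 without tumor 5 and 70 without tumor 4. Rpl23a had 70.5, 81.7, 79.4, 119 and 53.7 CPM in IP and 181, 315, 204, 184 and 169 CPM in input (log2 fold change -1.39, standard error 0.18, adjusted p = 0.00027). The tagged gene itself, Rpl22, had 476, 311, 264, 493 and 194 CPM in IP and 847, 744, 553, 519 and 434 CPM in input (log2 fold change -0.88, standard error 0.18, adjusted p = 0.00501). In tumor 4 the 2 fractions of Rpl22 hardly differed, and without the pairing its adjusted p was 0.058. The table does not separate tagged from untagged transcripts, so these counts say nothing of the tag. Its paralog Rpl22l1 was not called (-0.49, adjusted p = 0.101). Many ribosomal protein genes have processed pseudogenes with nearly the same sequence, which can take part of their reads.

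Other genes of the same machinery followed in part. Of 24 initiation and elongation factors, 3 (12.5%) were called higher and 11 (45.8%) lower, against 17.4% and 16.4% of all genes. They ranged from Eif3a (0.92, a subunit of eIF3) to Eef1b2 (-0.95). The count called higher was 1 without tumor 1 and 0 in tumors 2, 4 and 5, where 0 were called lower as well. The count called lower was 3 without the pairing and 6, 6, 4 and 5 without tumor 1, 2, 3 or 5. Host genes of small nucleolar RNAs had 11 of 15 called lower, 3 of them without the pairing, with Snhg18 at -1.25. Reactome's Translation had 86 genes called lower of 135 tested, which became 20 without the pairing and 56, 44 and 33 without tumor 2, 3 or 5. Nuclear-retained long noncoding RNAs had 1 of 7 called, Airn, which was higher (2.08), and without tumor 4 another 3 were called lower. Malat1, a nuclear RNA, had 1443, 538, 213, 1377 and 219 CPM in IP and 1226, 1099, 596, 1129 and 1664 CPM in input, and its direction differed between tumors (log2 fold change -0.96, adjusted p = 0.0948).

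The mitochondrially encoded protein genes, which are translated inside mitochondria, had the lowest median of the 42 gene lists. Of 13 mitochondrially encoded protein genes 7 were tested, and all 7 were called lower, with a median of -2.14. The largest difference was that of mt-Nd1 (-2.41), a subunit of respiratory complex I. Mt-Co1, a subunit of cytochrome c oxidase, had 4949.6, 12036, 4091, 30704 and 5837 CPM in IP and 22000.5, 27594, 69105, 34902 and 36822 CPM in input (log2 fold change -2.04, standard error 0.51, adjusted p = 0.0119). The median ratio over the list was -2.40, -1.20, -4.10, 0.15 and -2.75 in tumors 1 to 5. Tumor 3 had the lowest median, and that of tumor 4 was above 0. The calls rested on single tumors, with 2 of 7 called without tumor 1, 0 without tumor 5 and 1 without the pairing. Bc1, a short noncoding RNA transcribed by RNA polymerase III, had 31.4, 34.1, 3.15, 101 and 14.04 CPM in IP and 344, 376, 174, 127 and 98.7 CPM in input (log2 fold change -3.14, standard error 0.62, adjusted p = 0.00507). It was the gene with the smallest log2 fold change, again with tumor 4 apart. Among called genes of at least 5 CPM that were lower in IP in all 5 tumors, the mitochondrial tRNA gene mt-Tp (-3.001) and mt-Cytb (-2.24) came next.

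The rest of the 15 smallest were natriuretic peptide B (Nppb, -1.87), the serotonin transporter Slc6a4 (-1.59), the chemokine receptor Xcr1 (-1.57), ferritin light chain (Ftl1, -1.55), the protease inhibitor Slpi (-1.45), Mrgprf (-1.53), Gdpd2 (-1.52) and Prl2c2 (-1.46), and 3 pseudogenes or predicted genes, Rpl27-ps3 (-1.64), Rpl10a-ps1 (-1.63) and Gm5805 (-1.50). The values of the pseudogenes are uncertain because reads of their parent genes can map to them.

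The calls also followed the kind and the span of genes. Of 580 long noncoding RNA genes tested, 6.90% were called higher and 20.2% lower. Of 12366 protein-coding genes, 18.6% were called higher and 16.2% lower. Among the shortest genes, those spanning up to 8142 bases from start to end, 9.43% were called higher and 25.0% lower. Among the longest, from 74884 bases on, 25.5% were called higher and 9.51% lower. The intervals in the table include introns, so the levels of long genes may include unspliced RNA if reads were counted over them, and its part in these shares was not tested.

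**Figure D4:**
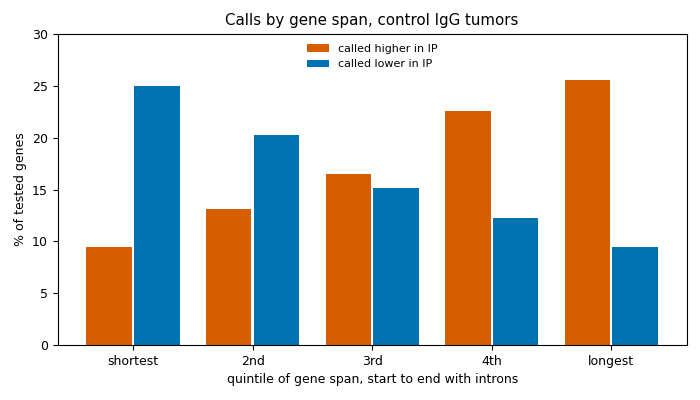
Percent of tested genes called higher (orange) and lower (blue) in IP by quintile of gene span, with 2734 or 2735 genes in each. Calls higher in IP increase from 9.43% to 25.5% from the shortest to the longest genes, and calls lower fall from 25.0% to 9.51%.

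In 4 lists of cell states the share called higher was 35.7% to 38.1%, against 17.4% of all genes, and the share called lower was 4.76% to 14.3%, against 16.4%. Of 28 cell cycle genes, 10 were called higher and 4 lower with a median of 0.31, led by the helicase subunit Mcm3 (1.01) and the kinesin Cenpe (1.00), with E2f1 the lowest (-0.68). Without the pairing 1 was called in each direction, and leaving out tumor 1, 2, 3 or 5 left 6, 5, 5 and 5 called higher and, without tumor 3, 2 called lower. Of 22 genes of glycolysis and the hypoxia response, 8 were called higher, among them Pfkp (1.08) and Pfkfb3 (1.04), which raise flux through phosphofructokinase, and 3 lower, among them carbonic anhydrase 9 (Car9, -0.82). The median of this list was 0.01 and changed sign under several settings, and 5 were called higher without tumor 3. Without the pairing 4 were called higher and 0 lower, and leaving out tumor 1, 2, 3 or 5 left 1 called lower. Of 21 immediate early genes, 8 were called higher and 1 lower, from Dusp1 (1.54) to Fosl1 (-0.76), with 4 higher without tumor 1 or without the pairing and 5 without tumor 3. Of 21 interferon-stimulated genes, 8 were called higher and 2 lower, from Rsad2 (1.06) to Irf7 (-0.89), with 2 higher without the pairing and 5 without tumor 5.

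Genes of antigen presentation were tested in lists for both MHC classes, and the difference between the lists was not tested. Of 9 genes of MHC class II presentation, 6 were called lower and 0 higher, with H2-Aa at -0.82, and 1 was called without the pairing. Class II molecules are mainly made by professional antigen-presenting cells. The broader Reactome pathway MHC class II antigen presentation had 22 genes called higher and 11 lower of 74 tested, against 17.4% and 16.4% of all genes, with a median of 0.18. Its counts were 7 and 1 without the pairing, the count called higher was 12, 13, 10 and 12 without tumor 1, 2, 3 or 5, and the count called lower was 7 without tumor 5. Of 10 class I genes, 1 was called higher, H2-Q7 (0.98), a call that was lost without tumor 1, 2 or 3. Of the class I genes 3 were called higher without tumor 4, 2 without tumor 5 and 0 without the pairing. Reactome's Signaling by VEGF had 36 genes called higher and 10 lower of 95 tested, and 23 and 5 without the pairing. Its count called lower was 6 without tumor 1 and 4 without tumor 3.

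The IP over input ratios of the most enriched genes varied between tumors. The median log2 ratio of IP over input of the 455 genes at least 4-fold higher was 3.37, 3.04, 3.76, 2.26 and 2.81 in tumors 1 to 5. Tumor 3 had the highest and tumor 4 the lowest median. Of 355 of these genes with a mean of at least 5 CPM in IP, 274 (77.2%) had their lowest ratio in tumor 4. The ratios of all 13671 genes correlated between tumors with Pearson's r from 0.60 to 0.83, a description across genes, which are not independent and share the scaling of their libraries.

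Some genes varied far more than this common difference. Gm47283, listed on chromosome Y although the mice were female, had 1660.1, 1318, 463, 96.3 and 61.7 CPM in IP and 57.2, 59.5, 15.1, 28.6 and 48.6 CPM in input (log2 fold change 3.39), and its log2 ratio ranged over 4.86, 4.47, 4.93, 1.75 and 0.34 in tumors 1 to 5. Which transcript its reads came from was not tested. Ramp3, a receptor partner like Ramp2, had 80.8, 23.4, 46.8, 5.08 and 5.04 CPM in IP and 4.22, 3.43, 3.45, 2.74 and 2.45 CPM in input, and the tumors split into 3 with high and 2 with low IP values. Sez6l2, Egfl7 and Cldn15 were the others with the largest spread. The log2 ratio varied least for Crmp1 (3.37, 3.12, 3.43, 3.63 and 3.54), a semaphorin signaling protein, and for Dapk2, Dock6, Mecom and Myzap. Myzap, a protein of cell junctions, had 41.6, 32.4, 38.9, 19.6 and 29.1 CPM in IP and 2.03, 1.89, 1.55, 0.684 and 1.94 CPM in input, and tumor 4 had the highest of its 5 log2 ratios.

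**Figure D5:**
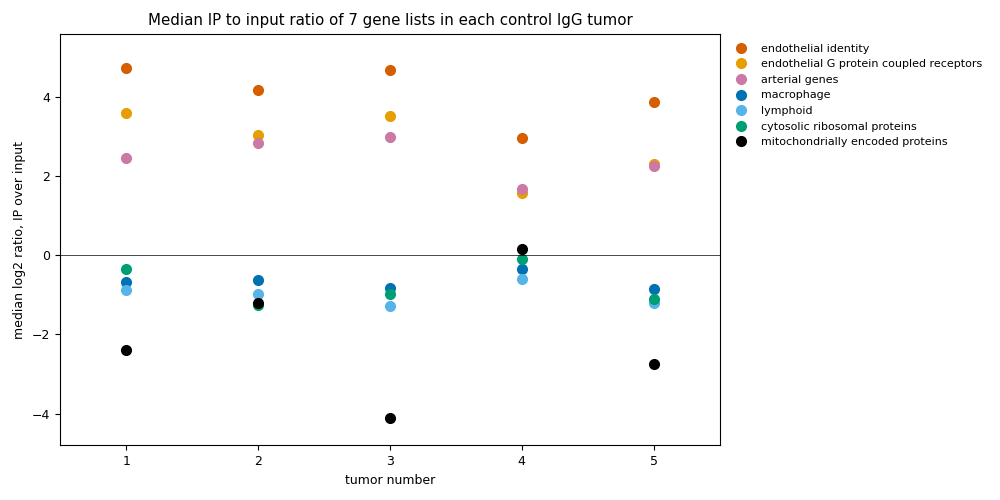
Median log2 ratio of IP over input per control IgG tumor for 7 gene lists, 1 color per list. Tumor 4 has the smallest ratio of the endothelial identity list (2.96, others 3.88 to 4.75) and a mitochondrially encoded ratio of 0.15, where the other tumors lie between -4.10 and -1.20.

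No gene was called for a difference between the treatment groups. The difference of IP over input between 6-3-A6 and control IgG tumors was tested over 14488 genes with edgeR, with the tumor as a block, and 0 genes were called (0%). The smallest adjusted p was 1.00, and 141 genes had an unadjusted p under 0.05. DESeq2 called 0, with 159 at an unadjusted p under 0.05. The log2 difference (6-3-A6 minus control IgG) was 0.08 for Pecam1 (standard error 0.50), 0.23 for Cdh5 (0.46), 0.74 for Sox18 (0.46), 0.03 for Notch4 (0.51) and -0.32 for Dll4 (0.42). These standard errors leave room for differences between the groups, so equal ratios in both groups were not shown.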

How the data were processed

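Input and endothelial IP RNA of 5 control IgG tumors was sequenced as 100 bp single reads. The authors aligned reads with STAR (2.7.4a in their processing notes) and made the deposited counts with featureCounts (2.0.1 and 1.5.2 are both listed there). The table gives 55789 of 55866 genes as 1 interval with the length of the whole span, introns included, and the counting options are not given in the sources used here. The methods name mm10, whereas the positions deposited beside the counts belong to GRCm39, and the strand setting is not given in the sources used here. A second deposited table holds the authors' own comparison of the 2 antibodies in IP and was not used.

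The raw counts of 55866 genes were filtered by edgeR 4.0.16 (filterByExpr) in R 4.3.3 to 13671 genes and tested with TMM factors, the robust quasi-likelihood fit, the tumor number as a block and Benjamini-Hochberg adjustment at 0.05. The pairing comes from the labels, as input and IP were taken from the same lysate of 1 tumor. Deviations of same-numbered libraries correlated at 0.73, 0.15, 0.55, 0.04 and 0.58 in tumors 1 to 5. No 2 libraries of a group agreed within sampling noise (lowest median chi-square per gene 1.96). Per-tumor log2 ratios used a prior count of 2. On simulated counts of 13488 genes for this comparison, 200 genes were changed in random directions. Of these, 87 of 100 changed 2-fold and 99 of 100 changed 4-fold were recovered, with 7 false calls. In the data 4629 genes were called, so the number of false calls among them cannot be read from this simulation. The interaction with 6-3-A6 used all 20 libraries with the tumor as a block, grouped by title, because a description line of the 6-3-A6 libraries names the other fraction. The p-values measure the spread between these numbered tumors.

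The 42 gene lists, 28 Reactome pathways (2599 of 2699 gene numbers matched) and the rule for named genes were chosen with earlier results of these data known. The rule takes Pecam1, Cdh5 and Sox18, the 15 largest and 15 smallest fold changes among called genes of at least 5 CPM that moved alike in all tumors, the extremes of each list (3 largest and 2 smallest, or 2 and 2 outside the endothelial lists), Rpl22 and Rpl22l1, the Notch genes, and the 5 most and 5 least variable ratios. Robo4, Rps2 and Rpl12 are named for their promoters, and Abcc9, Siglech, Pdgfrb, Rgs5, Acta2 and Cspg4 were named after their values were seen. Alternatives covered the test (DESeq2 1.42.0, limma 3.58.1 voom), scaling, filter, dispersion, threshold, pairing and tumors.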

Additional observations from a re-analysis of the deposited data

Results flagged for a closer look

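Across 356 groups of 5 values for the genes and lists named in the text, 26 had a single sample far from the other 4 (Dixon's test at the 95% level), and chance flags about 1 in 20 groups. No explanation was tested for any of them.

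Tumor 3 held several of these samples. Its IP library had 926 CPM of Fabp4 (others 295 to 374), 157 CPM of Pfkfb3 (69.7 to 93.0), 18.6 CPM of Pparg (6.10 to 8.59), 20.3 CPM of Gzmb (7.26 to 10.99) and 22.0 CPM of S100a8 (0.67 to 6.23). Its input library had 63.0 CPM of S100a8 (2.07 to 11.5), 992 CPM of Vcam1 (577 to 681), 136 CPM of Tgfbr3 (75.5 to 83.5), 58.4 CPM of Cd99l2 (45.2 to 47.5) and 24.4 CPM of Gdpd2 (1.91 to 7.10).

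Tumor 1 was the highest for P-selectin in both fractions, with 6.76 CPM of Selp in IP (others 0.99 to 2.18) and 3.10 CPM in input (0.17 to 0.34). Its IP library also had 34.5 CPM of Nos3 (4.57 to 10.5) and 108 CPM of Rpl22l1 (16.3 to 36.5). Its input library had 100.2 CPM of Nid1 (36.6 to 48.9), 72.8 CPM of Ctnnd1 (35.6 to 40.9), 30.4 CPM of Mfap5 (8.02 to 13.2), 20.8 CPM of Cavin1 (14.1 to 15.8) and 1.01 CPM of Mmrn1 (0.39 to 0.52).

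IP library 4 had 18124 CPM of mt-Nd1 (others 923 to 5650), 20.6 CPM of mt-Tp (0.39 to 5.54) and 14.4 CPM of Slc6a4 (5.69 to 6.70). Input library 4 had 14.4 CPM of Cavin3 (5.43 to 7.88). Input library 2 had 315 CPM of Rpl23a (169 to 204) and 1.97 CPM of Fam110d (0.65 to 0.86). IP library 5 had the lowest Cd99l2, at 25.6 CPM against 38.1 to 42.5.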

How the results depend on the processing

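The paired edgeR fit called 4629 genes. DESeq2 called 4710, of which 4417 were among these, limma voom called 4711 (4589 among these), and edgeR called 4607, 4625 and 5084 with DESeq2 size factors, library totals and upper quartile factors. The fit without the replicate block called 2119 genes, 2118 of them shared with the paired fit. The fit of tumors 2, 4 and 5 called 1161, and the test against a 1.5-fold change called 878. Leaving out 1 tumor gave 2638 to 5698 calls, with the highest count without tumor 4. These fits differ in their samples or threshold, and the cause of the differences in count was not tested. The 21 endothelial identity calls were kept under all alternative settings except the stricter filter, which left 20 members to test.

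Without the pairing, 29 of 157 named genes lost their call and none changed sign. They were Agrn, Car9, Cd99l2, Cenpe, Col4a5, Ctnnd1, Eef1b2, Fosl1, Gdpd2, H2-Aa, H2-Q7, Id2, Irf7, Krt18, Mfap5, Notch2, Ptgs1, Rpl12, Rpl22, Rsad2, S100a8, Selp, Siglech, Slpi, Vcam1, Vegfa, Xcr1, mt-Co1 and mt-Nd1. Signs changed for 5 genes that were not called. Their log2 fold changes under those settings were, for Notch1, 0.078 with library totals and -0.116 to 0.064 on leaving out 1 tumor, with the positive value without tumor 4. Notch3 had -0.041 with upper quartile factors, -0.18 in tumors 2, 4 and 5 and -0.26 (without tumor 1) to 0.197 on leaving out 1 tumor. Nr2f2 had 0.072 in tumors 2, 4 and 5. Cspg4 had -0.058 with upper quartile factors and -0.16 (without tumor 4) to 0.197 on leaving out 1 tumor, and -0.07 without tumor 2. Rgs5 had -0.015 with upper quartile factors and -0.015 (without tumor 2) to 0.173 on leaving out 1 tumor. The median of 23 of 70 lists and pathways changed sign under at least 1 setting, among them the mural, tumor epithelial, dendritic cell, platelet, leukocyte adhesion and VEGF ligand lists. The interaction called 0 genes under all 8 alternatives. Genes at under 1 CPM in input rest on few counts, and at this depth a count of 0 allows up to 3 counts.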

Other observations

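Small lists of other cells had few testable members, and the shares of all genes called were 17.4% higher and 16.4% lower. Of 8 adipocyte genes 1 was called higher and 0 lower, of 6 skeletal muscle genes 0 and 2, of 5 erythroid genes 1 and 3, and of 5 platelet genes 1 and 2. Both tested Schwann cell genes were lower in IP. Without the pairing the counts called lower were 0 (skeletal muscle), 0 (erythroid), 1 (platelet) and 1 (Schwann cell). Of 64 replication-dependent histone genes 7 passed the filter on low counts, and 0 were called by the edgeR test, although H2bc21 had an unadjusted p of 0.022, and 1 was called lower without tumor 4.

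Further Reactome pathways had calls in both directions, beside 17.4% higher and 16.4% lower over all genes. Semaphorin interactions, a pathway of guidance cues for growing vessels and axons, had 21 genes called higher and 9 lower of 58 tested. The 9 lower were 15.5%, near the share of all genes, and the counts were 13 and 4 without the pairing. The count called lower was 6 without tumor 1, 4 without tumor 3 and 5 without tumor 5. Cell surface interactions at the vascular wall had 13 called higher (17.3%, near the share of all genes) and 28 lower (37.3%) of 75. Its counts were 10 and 13 without the pairing, with 18 lower without tumor 5. GPCR ligand binding had 24 called higher (19.4%, near the share of all genes) and 53 lower (42.7%) of 124. Its counts were 19 and 21 without the pairing, with 32 lower without tumor 3 and also without tumor 5.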
